A study of Mus musculus with 48 samples.

Results

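Fibroblasts of 3 organs of healthy mice, skin, knee joint and limb muscle, were compared with each other. The cells were all those that the deposited annotation calls fibroblasts and healthy in these organs, and their unique molecular identifiers (UMIs, each standing for 1 captured transcript) were summed per organ and mouse where at least 10 such cells were present. This gave 402 of the 1322 annotated fibroblasts in the series, which holds 12096 annotated cells. Joint supplied 192 cells from 3 mice (73, 81 and 38 in H3, H4 and H7), muscle supplied 82 cells from 4 mice (29, 22, 14 and 17 in H3, H4, H6 and H7), and skin supplied 128 cells from the same 4 mice (27, 29, 44 and 28). Values below are listed in this order of mice.

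The cells were profiled by Seq-Well, in which each cell is lysed in a microwell beside a barcoded bead, in a study of mice with collagen-induced arthritis (CIA) and healthy controls. The healthy mice were male DBA1/J animals aged 8 to 12 weeks with an arthritis score of 0, injected with phosphate-buffered saline in place of collagen. Samples were frozen, thawed, minced and digested before loading. Joint was digested with collagenase IV, muscle with collagenase II and skin with collagenase I, so organ and enzyme cannot be told apart. A whole knee holds synovium, cartilage, ligament, bone and marrow, and the annotation does not say from which of these a joint cell came. Red blood cells had been lysed in the muscle samples of H6 and H7. The sample names of H3 carry the prefix 2CIA and those of H4, H6 and H7 the prefix CIA. The first prefix holds 1 healthy mouse per organ, so no test was possible within it.

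Fibroblasts make and remodel the extracellular matrix of connective tissue, and those of different sites differ in what they secrete. Adult fibroblasts retain transcription factors of the embryonic body plan, among them the *Hox* genes, which mark position along the body axes and the limb, and factors of the *Tbx*, *Pitx* and *Shox* families, which pattern the limb. Beside this positional code lies a tissue identity. Fibroblasts of the synovial lining secrete the lubricant of the joint surface, fibroblasts of muscle interstitium support muscle regeneration, and dermal fibroblasts maintain the skin and signal to hair follicles.

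The summed libraries held 38642 to 64587 UMIs in joint, 10173 to 22664 in muscle and 18904 to 40256 in skin. The median cell had 717, 585 and 643.5 UMIs, respectively. Muscle was thus the shallowest organ. There 3 UMIs over all its libraries correspond to 50.1 CPM (counts scaled to a common total, here the full library). The same floor is 18.0 CPM in joint and 25.1 CPM in skin. Genes below these floors were not detectable at this depth. CPM of single genes below are set against a smaller total and run higher, so they cannot be read against these floors. For example, *Gsn* in joint of H3 is at 15827 CPM of the full library and is printed at a higher value below. Summed lists use the full library. A list of 8 fibroblast markers had 8.31 to 36.7 times the summed CPM of the other annotated cells of the same library in 11 of 11 libraries. The study used these markers to name the cells, so the ratio describes the label and is no test of it. Cell by cell, UMIs of another cell type's markers equalled or exceeded those of the fibroblast markers in 52 of 82 muscle, 48 of 192 joint and 31 of 128 skin fibroblasts, called mixed cells below. With blood markers ignored the numbers were 28, 13 and 30 (non-blood mixed cells).

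RNA of other cell types moved with organ. The 5 measured haemoglobin genes made up 10533 to 108969 CPM in joint fibroblasts and 13335 to 144893 CPM in muscle fibroblasts, and were at 0 UMIs in the skin fibroblasts of all 4 mice. The 10 granulocyte genes summed to 1440 to 6159 CPM in joint, 1633 to 16605 CPM in muscle and 0 to 26.4 CPM in skin. The 16 keratinocyte genes ran the other way, at 142 to 480 CPM in joint, 76.5 to 983 CPM in muscle and 745 to 4079 CPM in skin. Endothelial genes summed to 155 to 380 CPM in joint, 176 to 2143 CPM in muscle and 0 to 266 CPM in skin. Mitochondrial transcripts were 11.1% to 15.3% of UMIs in skin, 5.00% to 7.96% in joint and 3.91% to 9.05% in muscle. Over the 11 libraries, 7 cell barcodes were shared between libraries, and 2 fibroblasts carried a barcode shared with a fibroblast of another library. The part of these differences in the results below was not tested, other than by leaving out cells or genes.

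**Figure D1:**
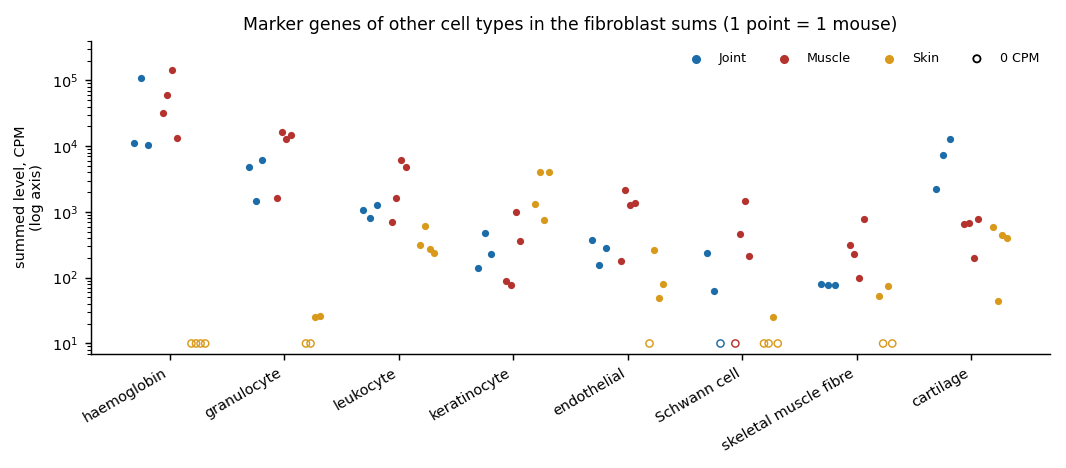
Summed level (CPM, log axis) of marker lists of other cell types in the fibroblasts of each mouse, by organ, with each point a library and open circles at 0. Haemoglobin genes lie between 10533 and 144893 CPM in the joint and muscle libraries and at 0 in the 4 skin libraries, whereas keratinocyte genes reach 4079 CPM in skin.

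Organ differences were tested with edgeR's quasi-likelihood test on the summed counts, and a gene was called at a Benjamini-Hochberg adjusted p under 0.05. Log2 fold changes are given with an approximate standard error, which is the absolute log2 fold change divided by the square root of the test's F statistic. Of 408 genes tested, 78 (19.1%) differed between skin and joint, 29 (7.11%) being higher and 49 (12%) lower in skin. Between skin and muscle 64 genes (15.7%) differed, with 33 (8.09%) higher and 31 (7.6%) lower in skin. Muscle and joint were told apart by 8 genes (1.96%), all lower in muscle, and 0 genes (0%) were higher in muscle. At an unadjusted p under 0.05 the counts were 134, 115 and 72, and DESeq2 called 79, 63 and 10 genes. Over the 3 organs together 80 genes (19.6%) differed. The 3 comparisons share libraries, so their values are given side by side and are not independent.

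The mice of the organs did not overlap for 71 of the 78 genes called between skin and joint, against 31.4% of all genes tested. The corresponding counts were 49 of 64 for skin and muscle, against 17.4%, and 8 of 8 for muscle and joint, against 12.99%. By pattern, 16 genes were higher in skin than in both other organs, 22 were lower in skin than in both, 5 were higher in joint than in both, and 2, *Serpine2* and *Lgals3*, were lower in muscle than in both. The number of calls between muscle and joint rested on single mice, being 19 without H3, 0 without H4, 1 without H6 and 6 without H7, and 5 with the mouse as a block. It was 0 after leaving out the mixed cells, a step that left muscle with 1 library, assumed to vary like those of the other organs, and 0 without the non-blood mixed cells, which left muscle with 3. Leaving out H7 also lowered the counts for skin, to 47 against joint and 19 against muscle, and leaving out H6 gave 36 against muscle.

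Calls of the genes named below were also read after leaving out cells. Without mixed cells, 37 of 44 calls for skin against joint were kept, and 4 of 30 for skin against muscle (*Dpt*, *Ogn*, *S100a8* and *Sparcl1*). Without non-blood mixed cells 33 of 37 that could be tested were kept for skin against joint, 21 of 25 for skin against muscle and 0 of 7 for muscle against joint. Without cells holding 2 or more UMIs on the cartilage list (cartilage-list cells, 83 in joint, 10 in skin and 6 in muscle) 29 of 32, 23 of 23 and 2 of 5 were kept, in the same order. Losses are given beside each gene, other than those of the muscle comparisons without mixed cells, and low-count genes were not refitted in this way.

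**Figure D2:**
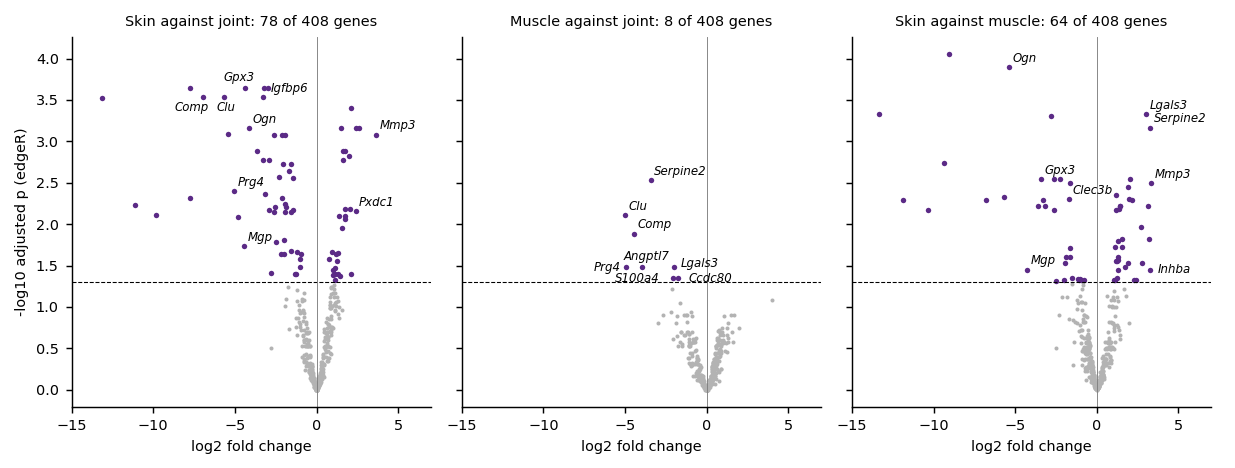
Log2 fold change (x axis) and adjusted p on a -log10 scale (y axis) of 408 genes for skin against joint, muscle against joint and skin against muscle, with each point a gene and called genes coloured. Between muscle and joint 8 genes are called, all on the negative side, whereas both comparisons of skin have calls on both sides.

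Only genes with enough counts in most libraries entered this test, and many identity and position genes did not. Genes with at least 10 UMIs over the 11 libraries, 5147 in all, were therefore also fitted, an alternative chosen after seeing the data. In this low-count fit 57 genes (1.11%) were higher and 138 (2.68%) lower in skin than in joint, 6 (0.117%) were higher and 45 (0.874%) lower in muscle than in joint, and 63 (1.22%) were higher and 48 (0.933%) lower in skin than in muscle. The median log2 fold changes over its genes were -0.22, -0.54 and 0.30 in the same order. With plain library size in place of TMM factors the medians were near 0 (-0.0065, -0.0127 and 0.0085), and the calls split into 83 higher and 106 lower, 10 higher and 16 lower, and 40 higher and 73 lower. With relative log expression factors the splits were 66 and 136, 8 and 26, and 49 and 66, so which direction held more calls between skin and muscle depended on the scaling. Of 86 calls of named genes in this fit, 46 kept the call with the mouse as a block, and DESeq2 kept 26 of the 63 it could test. Its spread was taken from the trend over all genes, so UMIs are printed for each gene beside its test. Where an organ had 0 UMIs, the fold is a lower bound set against 3 UMIs over the organ.

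Joint fibroblasts were set apart by secreted products of the synovium and cartilage. *Prg4* encodes lubricin, the lubricant of the joint surface, *Comp* a pentameric glycoprotein of cartilage and tendon matrix, *Clu* an extracellular chaperone, and *Angptl7* a secreted angiopoietin-like protein. Each was higher in joint than in both other organs, with no overlap between the mice of joint and those of either organ. These genes were picked among called genes without overlap, so this separation was set by that choice. They were also low in most skin and muscle libraries and entered the test through joint, so the filter partly set their calls. *Ccdc80*, a matrix protein gene, had the same pattern at a smaller fold.

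*Prg4* measured 8341, 12016 and 31009 CPM in joint, 580.4, 156, 0 and 1237 CPM in muscle and 2509, 0, 45.5 and 0 CPM in skin. All 3 joint libraries lay above every muscle and skin library, and the 25 UMIs behind the one skin library with a sizeable level came from 1 cell of H3. The log2 fold change was -5.03 ± 1.07 for skin against joint (adjusted p = 0.00402) and -4.94 ± 1.10 for muscle against joint (adjusted p = 0.0331). *Comp* was at 1476, 7873 and 5818 CPM in joint, 0, 156, 0 and 742 CPM in muscle and 201, 0, 0 and 0 CPM in skin. It was lowest in the joint of H3 and still above all other libraries there, with log2 fold changes of -6.95 ± 0.96 for skin (adjusted p = 0.000291) and -4.44 ± 0.83 for muscle against joint (adjusted p = 0.013). *Clu* was at 930.4, 7251 and 7428 CPM in joint, 166, 0, 0 and 371 CPM in muscle and 0, 0, 137 and 165 CPM in skin. The fold changes were -5.67 ± 0.81 for skin (adjusted p = 0.000291) and -4.98 ± 0.85 for muscle (adjusted p = 0.00783).

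*Angptl7* measured 1636, 7217 and 5402 CPM in joint, 0, 312, 395 and 618 CPM in muscle and 602, 0, 0 and 0 CPM in skin. The joint libraries again did not overlap with the others, at -5.42 ± 0.90 for skin (adjusted p = 0.000812) and -3.97 ± 0.87 for muscle (adjusted p = 0.0331). *Ccdc80* was at 2374, 3557 and 2389 CPM in joint, 580.4, 1092, 592 and 989.6 CPM in muscle and 1405, 329.7, 683 and 384 CPM in skin, at -2.05 ± 0.39 for skin (adjusted p = 0.00187) and -1.78 ± 0.42 for muscle (adjusted p = 0.0449). *Ccdc80* no longer passed for muscle against joint (adjusted p = 0.166 without H4, 0.158 without H6, 0.0633 without H7, 0.123 with the mouse as a block, 0.194 without non-blood mixed cells and 0.097 without cartilage-list cells), *Prg4* for muscle against joint (adjusted p = 0.147 without H4, 0.113 without H6 and 0.163 without non-blood mixed cells) and *Comp* for muscle against joint (adjusted p = 0.147 without H4, 0.0856 without H6 and 0.113 without non-blood mixed cells). *Clu* no longer passed for muscle against joint (adjusted p = 0.147 without H4 and 0.0727 without H6) and *Angptl7* for muscle against joint (adjusted p = 0.186 without H4, 0.107 without H6, 0.0551 without H7, 0.101 with the mouse as a block and 0.125 without non-blood mixed cells). None of the 5 calls for skin against joint was lost in those of these settings that could test it.

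**Figure D3:**
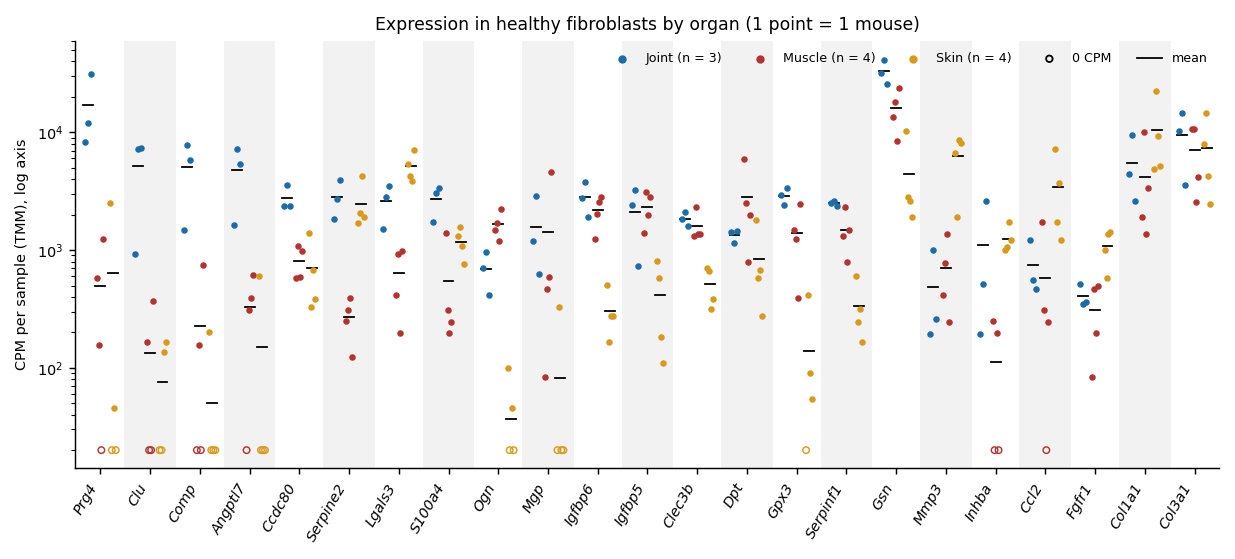
Level (CPM, log axis) of organ-marking genes in the fibroblasts of each mouse, by organ, with each point a library and the bar the mean of the 3 joint, 4 muscle or 4 skin libraries, and open circles at 0. *Prg4*, *Comp*, *Clu* and *Angptl7* lie highest in joint, *Mmp3* in skin, *Ogn* lowest in skin and *Serpine2* lowest in muscle.

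Per cell, at least 1 *Prg4* UMI was found in 105 of 192 joint fibroblasts (54.7%), 10 of 82 muscle fibroblasts (12.2%) and 2 of 128 skin fibroblasts (1.56%). With every cell thinned to 400 UMIs the shares were 46.9%, 8.54% and 1.56%. The background, taken from the other annotated cells, was 10.8% in joint, 0.410% in muscle and 0% in skin on the same thinned basis. The other cells were somewhat deeper, with median UMIs of 773.5, 613 and 829. The thinned share of *Comp* was 35.4% in joint fibroblasts against 2.36% of other joint cells, and 2.44% and 0.781% in muscle and skin fibroblasts. The joint share of both genes exceeded the background of the organ.

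Within joint fibroblasts the genes overlapped in part. Of the 105 cells with a *Prg4* UMI, 55 also had *Comp*, 31 *Clu* and 39 *Angptl7*. Of the 37 cells with *Clu*, 18 had *Chad* and 17 had *Cytl1*, whereas 2 had *Pi16*, a marker of universal fibroblasts. The gene *Pi16* was found in 35 joint cells, 16 of them with *Prg4*, and 0 of these 35 had the bone gene *Ibsp*. These are counts over cells of 3 libraries with a median of 717 UMIs, in which an absent UMI is not an absent transcript.

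**Figure D4:**
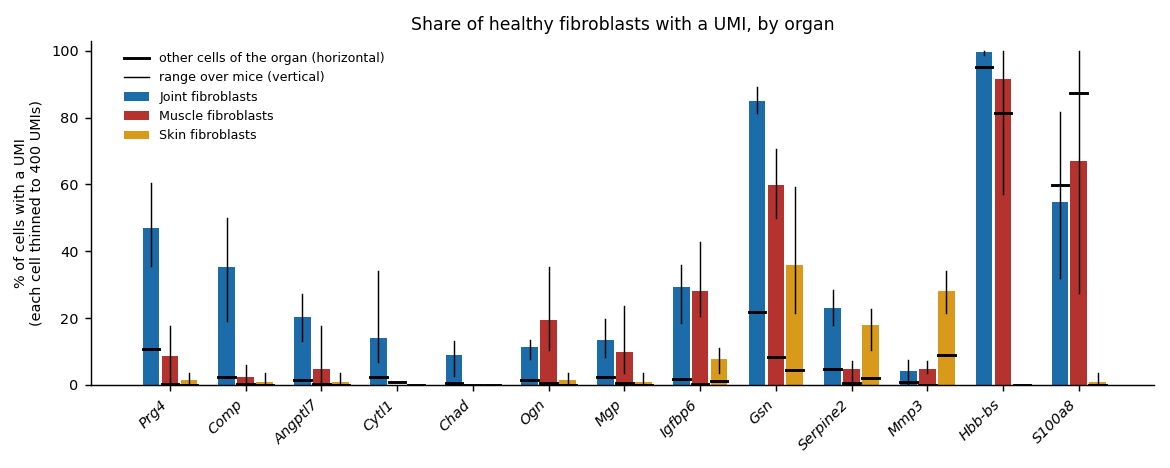
Share of cells (%) with at least 1 UMI of each gene, after thinning every cell to 400 UMIs, with bars for the fibroblasts pooled over mice, vertical lines for the range over mice and thick horizontal marks for the other annotated cells of the same organ. *Prg4* was found in 46.9% of joint fibroblasts and 1.56% of skin fibroblasts, and *Mmp3* in 28.1% of skin fibroblasts and 4.17% of joint fibroblasts.

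Genes of chondrocytes were found mainly in joint. Of 32 cartilage genes listed, 15 were tested in the low-count fit, and 12 were lower in skin and 5 lower in muscle than in joint, while 0 differed between skin and muscle. Of all genes in this fit 2.68% and 0.874% were lower in skin and in muscle than in joint. Genes at 0 UMIs outside joint, such as *Cytl1* and *Chad*, entered this fit through joint alone, so the counts are partly set by the filter. No median is given for lists of low-count genes, since the fitted fold change of a gene at 0 UMIs in an organ is not a measured size. *Cytl1*, a cytokine-like protein made by chondrocytes, had 15, 57 and 210 UMIs in the fibroblasts of the 3 joint libraries and 0 in those of all muscle and skin libraries. This was at least 67.5-fold higher than skin (adjusted p = 1.99e-27) and at least 33.8-fold higher than muscle (adjusted p = 1.11e-21), but 148 of the 210 UMIs of H7 came from 1 cell, and DESeq2 did not call it (adjusted p = 0.191 and 0.299). The 0 in muscle holds for fibroblasts, since 15 of 975 other muscle cells had a *Cytl1* UMI. Thinned shares were 14.1% of joint fibroblasts, 2.36% of other joint cells and 1.03% of other muscle cells. *Chad*, which encodes the cartilage leucine-rich protein chondroadherin, had 5, 50 and 33 UMIs in joint and 0 elsewhere, at least 21.1-fold and 10.6-fold higher than in skin and muscle (adjusted p = 1.52e-11 and 2.23e-08), and DESeq2 did not call it for skin (adjusted p = 0.328).

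*1500015O10Rik*, which encodes the cartilage-expressed secreted peptide Ecrg4, had 20, 109 and 278 UMIs in joint, 0, 1, 0 and 2 in muscle and 0 in skin. The level in joint was at least 97.5-fold that of skin (adjusted p = 3.9e-33), and muscle differed from joint by -6.26 ± 0.60 (adjusted p = 5.81e-22), with 149 UMIs of H7 in 1 cell. *3110079O15Rik*, which encodes the chondrocyte proteoglycan Snorc, had 5, 16 and 30 UMIs in joint, 1, 0, 0 and 0 in muscle and 0 in skin. The defining collagen and proteoglycan of hyaline cartilage were sparse, *Col2a1* having 0, 2 and 10 and *Acan* 5, 3 and 5 UMIs in joint and 0 in the other organs. Both were called for skin (adjusted p = 0.0391 and 0.0401) and not for muscle (adjusted p = 0.23 and 0.23). Without cartilage-list cells *Prg4* was called against skin (adjusted p = 0.00652) and muscle (adjusted p = 0.0428), whereas *Apod* for skin against joint and *Ccdc80* for muscle against joint were lost (adjusted p = 0.0693 and 0.097). *3110079O15Rik* no longer passed for muscle against joint (adjusted p = 0.449 without H7 and 0.0714 with the mouse as a block), *Col2a1* for skin against joint (adjusted p = 0.0553 without H4, 0.125 without H6 and 0.327 with the mouse as a block) and *Acan* for skin against joint (adjusted p = 0.0671 without H4, 0.129 without H6 and 0.301 with the mouse as a block).

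The 250 bases upstream of the annotated start of 3 of these joint genes are shown because their transcripts were found mainly in joint libraries (RefSeq, GRCm38.p6, 5′ to 3′ on the strand of the gene). *Cytl1* lies at chr5:37735269-37735518 on the plus strand, *Chad* at chr11:94564797-94565046 on the plus strand and *Angptl7* at chr4:148500463-148500712 on the minus strand. Capitals mark a match to TATAAA, the core of a TATA box, or to TGANTCA, the binding sequence of AP-1, searched on both strands, and no match to one overlaps a match to the other. They occur in 12.4% and 6.75% of 32851 promoter windows of this length. Of the 3 windows 1 holds a match, TATAAA at position -28 of *Chad*.
Cytl1: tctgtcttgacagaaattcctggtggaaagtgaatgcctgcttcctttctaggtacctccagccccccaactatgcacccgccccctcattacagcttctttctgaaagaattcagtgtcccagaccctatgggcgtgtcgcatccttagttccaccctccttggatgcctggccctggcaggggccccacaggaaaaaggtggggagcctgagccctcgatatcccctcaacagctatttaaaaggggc
Chad: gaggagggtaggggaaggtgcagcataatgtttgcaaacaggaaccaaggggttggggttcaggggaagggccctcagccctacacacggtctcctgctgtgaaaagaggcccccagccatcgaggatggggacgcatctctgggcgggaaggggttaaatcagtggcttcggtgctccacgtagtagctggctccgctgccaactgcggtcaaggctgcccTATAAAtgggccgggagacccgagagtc
Angptl7: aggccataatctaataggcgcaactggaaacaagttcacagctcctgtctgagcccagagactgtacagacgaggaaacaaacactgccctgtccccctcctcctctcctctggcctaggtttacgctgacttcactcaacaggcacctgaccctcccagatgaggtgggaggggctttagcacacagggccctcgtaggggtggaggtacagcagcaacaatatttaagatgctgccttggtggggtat

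Bone and tendon genes were read in the same way, since a whole knee was digested. Of 8 bone and marrow stroma genes tested out of 19 listed, 4 were lower in skin and the same 4 lower in muscle than in joint, and 1, *Bglap3*, was higher in skin. The shares of all genes of the low-count fit were 2.68%, 0.874% and 1.11%, in the same order. Like *Cytl1*, *Ibsp* entered this fit through joint alone. *Ibsp*, bone sialoprotein, had 14, 83 and 3 UMIs in joint and 0 elsewhere, with 14 of 14 and 32 of 83 in single cells of H3 and H4. *Spp1*, osteopontin, had 0, 130 and 28 UMIs in joint, 2, 0, 1 and 0 in muscle and 0, 3, 3 and 0 in skin, so 1 joint library had none. *Col10a1*, collagen of hypertrophic cartilage, had 31, 2 and 0 UMIs in joint, 30 of them in 1 cell. *Cxcl12*, a chemokine of marrow stroma and perivascular fibroblasts, was more even, with 22, 34 and 14 UMIs in joint, 0, 3, 0 and 0 in muscle and 4, 1, 1 and 1 in skin (-2.97 ± 0.65 for skin, adjusted p = 0.000427, and -3.51 ± 0.77 for muscle, adjusted p = 0.00123). *Ibsp* no longer passed for muscle against joint (adjusted p = 0.19 without H4), *Spp1* for muscle against joint (adjusted p = 0.202 without H4) and *Cxcl12* for skin against joint (adjusted p = 0.0521 with the mouse as a block). *Col10a1* no longer passed for muscle against joint (adjusted p = 0.0754 without H6 and 0.312 with the mouse as a block) and *Col10a1* for skin against joint (adjusted p = 0.162 with the mouse as a block).

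The tendon genes that were called were all lower in skin. Of 8 tested out of 12 listed, 4 were lower in skin than in joint, 4 were lower in skin than in muscle, and 0 differed between muscle and joint. Among all genes of the low-count fit, 2.68% were lower in skin than in joint and 0.933% lower in skin than in muscle. *Fmod*, fibromodulin of collagen fibrils, had 19, 25 and 12 UMIs in joint, 1, 8, 0 and 3 in muscle and 0 in skin. It was at least 13.4-fold higher in joint (adjusted p = 9.26e-08) and at least 7.99-fold higher in muscle (adjusted p = 0.00186) than in skin. *Thbs4*, a thrombospondin of tendon matrix, had 4, 26 and 5 UMIs in joint, 12, 5, 1 and 2 in muscle and 0 in skin (at least 8.38-fold, adjusted p = 1.65e-05, and at least 13.3-fold, adjusted p = 5.7e-05). *Kera*, keratocan, had 2, 7, 0 and 3 UMIs in muscle, 5, 0 and 0 in joint and 0 in skin, and differed between skin and muscle (adjusted p = 0.0102). *Tnmd*, tenomodulin, a membrane protein of tendon cells, was not called in any comparison, with 5, 7 and 1 UMIs in joint, 12, 5, 0 and 1 in muscle and 4, 0, 4 and 5 in skin. *Fmod* no longer passed for skin against muscle (adjusted p = 0.22 without H4), *Thbs4* for skin against joint (adjusted p = 0.0629 without H4) and *Kera* for skin against muscle (adjusted p = 0.19 without H4, 0.0862 without H7 and 0.0787 with the mouse as a block).

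The synovial lining list held 18 genes, of which 5 entered the main test. Relative to joint, 4 were lower in skin (*Prg4*, *Clu*, *Fn1* and *Hbegf*) and 1, *Mmp3*, was higher, and in muscle 2 were lower (*Prg4* and *Clu*). Of all genes tested, 12% were lower and 7.11% higher in skin, and 1.96% lower in muscle. No median of the 5 is given, since *Prg4* and *Clu* were low in most skin and muscle libraries and entered the test through joint. In the low-count fit, with 15 tested, 1 was higher and 6 lower in skin than in joint (1.11% and 2.68% of all genes there). Lower in muscle than in joint were 3 (*Prg4*, *Fn1* and *Clu*, against 0.874%). *Fn1*, fibronectin, was at 1347, 2417 and 3948 CPM in joint, 1907, 779.7, 0 and 247 CPM in muscle and 100.4, 329.7, 182 and 165 CPM in skin, and differed between skin and joint by -3.66 ± 0.66 (adjusted p = 0.00132). *Hbegf*, a growth factor of the EGF family, was at 513, 1036 and 2234 CPM in joint, 249, 468, 1382 and 495 CPM in muscle and 201, 165, 409.9 and 54.9 CPM in skin (-2.45 ± 0.66, adjusted p = 0.0166). Skin lay below joint in every library for both genes, and muscle overlapped with both organs. *Hbegf* no longer passed for skin against joint (adjusted p = 0.0641 without H4, 0.29 without H7 and 0.0755 without mixed cells).

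Muscle fibroblasts had less *Serpine2* and *Lgals3* than both other organs and less *S100a4* than joint. *Serpine2*, an extracellular inhibitor of serine proteases, was at 249, 312, 395 and 124 CPM in muscle, 1829, 2728 and 3948 CPM in joint and 1706, 2061, 4236 and 1921 CPM in skin. Every muscle library lay below every other library, with log2 fold changes of -3.42 ± 0.50 for muscle against joint (adjusted p = 0.00295) and 3.27 ± 0.50 for skin against muscle (adjusted p = 0.000686). Skin and joint differed by -0.15 ± 0.35 (adjusted p = 0.815). *Lgals3*, galectin-3, a sugar-binding protein also abundant in macrophages, was at 415, 936, 197 and 989.6 CPM in muscle, 1508, 2832 and 3480.1 CPM in joint and 5420.0, 4287, 3826 and 7024 CPM in skin (-2.0 ± 0.44 for muscle against joint, adjusted p = 0.0331, and 2.99 ± 0.42 for skin against muscle, adjusted p = 0.000467). Its thinned share of cells, 14.6% in muscle, 29.2% in joint and 47.7% in skin fibroblasts, was below or near that of the other cells of each organ (26.9%, 42.0% and 47.2%). What part RNA of other cells had in these shares was not tested. *S100a4*, a calcium-binding protein of motile mesenchymal cells, was at 1409, 312, 197 and 247 CPM in muscle and 1732, 3039 and 3376 CPM in joint (-2.07 ± 0.49, adjusted p = 0.0449). *Serpine2* no longer passed for muscle against joint (adjusted p = 0.0781 without H4, 0.113 without non-blood mixed cells and 0.259 without cartilage-list cells), *Lgals3* for muscle against joint (adjusted p = 0.15 without H4, 0.113 without H6, 0.0578 without H7, 0.125 without non-blood mixed cells and 0.0768 without cartilage-list cells) and *S100a4* for muscle against joint (adjusted p = 0.234 without H4, 0.158 without H6, 0.186 without H7, 0.123 with the mouse as a block and 0.312 without non-blood mixed cells).

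Of 24 genes listed for muscle interstitial fibroblasts, 5 entered the main test, and 0 of these differed between muscle and joint. The 5 were lower in skin than in joint (*Gpx3*, *Cxcl14*, *Apod*, *Ly6a* and *Ly6c1*), and 2 were lower in skin than in muscle (*Gpx3* and *Ly6a*). In the low-count fit, with 20 tested, *Cxcl14*, *Apod* and *Nov* were lower in muscle than in joint, 1 gene was higher and 8 lower in skin than in joint, and 1 was higher and 4 lower in skin than in muscle. Lower in skin than in joint were 12% of all genes in the main test and 2.68% in the low-count fit. For skin against muscle these shares were 7.6% and 0.933%. No median of the 5 is given, since genes low in skin could enter the test through the other organs. *Gpx3*, a secreted glutathione peroxidase, was at 2919, 2417 and 3376 CPM in joint, 1492, 1247, 395 and 2474 CPM in muscle and 0, 412, 91.1 and 54.9 CPM in skin. It differed by -4.39 ± 0.58 for skin against joint (adjusted p = 0.000228) and -3.41 ± 0.63 for skin against muscle (adjusted p = 0.00288), with 1 muscle library inside the range of skin. *Ly6a*, which encodes the surface marker Sca-1 and shares sequence with *Ly6c1*, was at 770.0, 1174 and 987 CPM in joint, 1078, 2027, 1184 and 742 CPM in muscle and 201, 329.7, 182 and 109.8 CPM in skin (-2.27 ± 0.46, adjusted p = 0.00266, and -2.60 ± 0.47, adjusted p = 0.00288). *Cxcl14*, a chemokine, and *Apod*, apolipoprotein D, differed between skin and joint by -3.25 ± 0.62 and -2.60 ± 0.61 (adjusted p = 0.0017 and 0.00705). In H7, 111 of the 147 *Apod* UMIs of joint came from 1 cell. In CIA mice the *Apod* difference had the opposite sign and did not pass (1.56 (adjusted p = 0.0747)). *Apod* no longer passed for skin against joint (adjusted p = 0.13 without H7 and 0.0693 without cartilage-list cells) and *Ly6c1* for skin against joint (adjusted p = 0.0617 without H4, 0.106 without H7 and 0.0779 with the mouse as a block).

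*Ogn*, osteoglycin, a small leucine-rich proteoglycan of connective tissue, was high in muscle and joint and low in skin. It was at 1492, 1715, 1184 and 2227 CPM in muscle, 706, 967 and 416 CPM in joint and 100.4, 0, 45.5 and 0 CPM in skin. All muscle libraries lay above all joint libraries, and both above skin. The fold changes were -5.38 ± 0.64 for skin against muscle (adjusted p = 0.000127) and -4.15 ± 0.68 for skin against joint (adjusted p = 0.000696), while muscle and joint differed by 1.23 ± 0.43, which did not pass (adjusted p = 0.181). Thinned shares of cells with an *Ogn* UMI were 19.5% in muscle, 11.5% in joint and 1.56% in skin fibroblasts, against 0.718%, 1.42% and 0% of other cells.

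Skin fibroblasts were lower than both other organs in genes of the fibroblast type found in many tissues. Of 16 universal fibroblast genes, 7 entered the main test. Of these 5 were lower in skin than in joint (12% of all genes tested), 5 were lower in skin than in muscle (7.6%), 0 were higher in skin, and 0 differed between muscle and joint. No median is given, since genes low in skin could enter the test through the other organs. In the low-count fit, with 15 tested, 5 were lower in skin than in joint and 4 lower in skin than in muscle. There 1, *Fn1*, was lower in muscle than in joint. The shares of all genes in that fit were 2.68%, 0.933% and 0.874%. In the main test *Igfbp5*, *Igfbp6*, *Clec3b* and *Ly6a* were called in both comparisons of skin. *Clec3b*, tetranectin, was at 1829, 2106 and 1610.2 CPM in joint, 1326, 2339, 1382 and 1361 CPM in muscle and 703, 659, 319 and 384 CPM in skin. The skin libraries lay below all others, by -1.92 ± 0.33 against joint (adjusted p = 0.000849) and -1.69 ± 0.35 against muscle (adjusted p = 0.00503). Among general mesenchymal genes, *Cd34*, a surface sialomucin of adventitial fibroblasts, was lower in skin than in muscle (-1.50 ± 0.46, adjusted p = 0.0447) and *S100a6*, a calcium-binding protein, lower in skin than in joint (-1.44 ± 0.33, adjusted p = 0.00681). *Dpt*, dermatopontin, a collagen-binding matrix protein, was at 5969, 2495, 789.7 and 1979 CPM in muscle and 1807, 577, 683 and 274 CPM in skin (-1.93 ± 0.55, adjusted p = 0.0292), with 38 of the 72 UMIs of H3 muscle in 1 cell, and did not differ from joint beyond the spread between mice (adjusted p = 0.376). *Clec3b* no longer passed for skin against muscle (adjusted p = 0.0504 without H7), *Dpt* for skin against muscle (adjusted p = 0.138 without H4 and 0.107 without H7) and *Cd34* for skin against muscle (adjusted p = 0.219 without H3, 0.0531 without H4, 0.101 without H6, 0.167 without H7, 0.0658 with the mouse as a block and 0.0675 without non-blood mixed cells). *S100a6* no longer passed for skin against joint (adjusted p = 0.0829 without H4).

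The binding proteins of insulin-like growth factors divided by organ. *Igfbp6*, which prefers IGF-II, was at 2759, 3764 and 1922 CPM in joint, 1244, 2027, 2566 and 2845 CPM in muscle and 502, 165, 273 and 274 CPM in skin, with skin below all other libraries (-3.24 ± 0.39, adjusted p = 0.000228, and -2.83 ± 0.41, adjusted p = 0.000498). *Igfbp5* was at 2406, 3211 and 727 CPM in joint, 1409, 3119, 1974 and 2845 CPM in muscle and 803, 577, 182 and 109.8 CPM in skin (-2.54 ± 0.58, adjusted p = 0.00616, and -2.64 ± 0.59, adjusted p = 0.00671). *Igfbp7* was lower in skin than in joint (-2.10 ± 0.36, adjusted p = 0.000849). The reverse held for the low-count members *Igfbp3*, the main carrier of IGFs in serum, and *Igfbp2*. *Igfbp3* had 4, 7, 15 and 33 UMIs in skin, 1, 3 and 3 in joint and 0 in muscle (3.08 ± 0.67 for skin against joint, adjusted p = 0.000397, and at least 9.85-fold over muscle, adjusted p = 2.15e-06). *Igfbp2* had 2, 0, 22 and 15 UMIs in skin, 0, 1 and 0 in joint and 0 in muscle (4.71 ± 0.97, adjusted p = 0.000124, and at least 6.51-fold, adjusted p = 0.000514), and 1 skin library had none.

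The growth factor itself, *Igf1*, had 42, 45 and 14 UMIs in joint, 6, 2, 0 and 2 in muscle and 1, 2, 2 and 9 in skin. It was highest in joint, with log2 fold changes of -2.57 ± 0.55 for skin against joint (adjusted p = 0.000258) and -2.41 ± 0.58 for muscle against joint (adjusted p = 0.00629). Of 9 genes of the pathway tested at low counts, 2 were higher and 4 lower in skin than in joint, 2 were lower in muscle than in joint, and 2 were higher and 2 lower in skin than in muscle. The shares of all genes of that fit were 1.11%, 2.68%, 0.874%, 1.22% and 0.933%, in the same order. The thinned share of cells with *Igfbp3* was 7.03% in skin fibroblasts and 4.03% in other skin cells. *Igf1* no longer passed for muscle against joint (adjusted p = 0.19 without H4, 0.0754 without H6 and 0.0979 with the mouse as a block), *Igfbp3* for skin against joint (adjusted p = 0.116 without H7) and *Igfbp2* for skin against joint (adjusted p = 0.132 with the mouse as a block). *Igfbp2* no longer passed for skin against muscle (adjusted p = 0.0903 without H6) and *Igfbp5* for skin against muscle (adjusted p = 0.0523 without H6).

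Small leucine-rich proteoglycans, which coat and space collagen fibrils, were lower in skin than in joint in 4 of 5 members tested of 14 listed, against 12% of all genes tested. *Dcn*, decorin, was at 32306, 47099 and 47423 CPM in joint, 10861, 19024, 10068 and 23379 CPM in muscle and 17866, 13189, 7651 and 7134 CPM in skin (-1.89 ± 0.43 for skin against joint, adjusted p = 0.00616). *Bgn*, biglycan, differed by -1.90 ± 0.45 (adjusted p = 0.00718) and *Lum*, lumican, by -1.31 ± 0.42 (adjusted p = 0.0405), and *Ogn* as given above. The fifth, *Aspn*, did not pass (-1.23, adjusted p = 0.135). In the low-count fit 10 of 12 members were lower in skin than in joint, 4 of 12 lower in muscle than in joint and 3 of 12 lower in skin than in muscle. The shares of all genes there were 2.68%, 0.874% and 0.933%, in the same order. Of 4 fibrillar collagen genes tested in the main fit, 0 were called in any comparison, *Col1a1* differing by 0.92 ± 0.67, *Col1a2* by 0.20 ± 0.52 and *Col3a1* by -0.39 ± 0.61 between skin and joint (adjusted p = 0.368, 0.84 and 0.712). In the low-count fit, with 11 tested, *Col1a1* was higher in skin than in muscle, *Col14a1* was lower in skin than in both other organs, and *Col2a1* was lower in skin than in joint. The summed level of the 14 collagens listed overlapped between organs, at 7142 to 19183 CPM in joint, 4915 to 19666 CPM in muscle and 7453 to 32985 CPM in skin. *Bgn* no longer passed for skin against joint (adjusted p = 0.0601 without H7) and *Lum* for skin against joint (adjusted p = 0.0787 without H4, 0.0987 without H6, 0.194 without H7, 0.217 without mixed cells, 0.247 without non-blood mixed cells and 0.298 without cartilage-list cells).

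Other secreted proteins were lower in skin as well. *Serpinf1*, pigment epithelium-derived factor, was at 2534, 2589.8 and 2389 CPM in joint, 1326, 2339, 789.7 and 1484 CPM in muscle and 602, 247, 319 and 165 CPM in skin (-2.97 ± 0.38, adjusted p = 0.000228, and -2.23 ± 0.41, adjusted p = 0.00288). *Sparcl1*, a matricellular protein listed for dermal fibroblasts, was also lower in skin, at 0, 0, 273 and 109.8 CPM against 1219, 759.7 and 1558 CPM in joint and 2073, 312, 987 and 1484 CPM in muscle (-3.17 ± 0.68, adjusted p = 0.00426, and -3.32 ± 0.70, adjusted p = 0.00513). *Mgp*, matrix Gla protein, an inhibitor of calcification, was at 1187, 2866 and 623 CPM in joint, 82.9, 468, 592 and 4577 CPM in muscle and 0, 329.7, 0 and 0 CPM in skin (-4.42 ± 1.21, adjusted p = 0.0183, and -4.29 ± 1.27, adjusted p = 0.0355). In muscle, 22 of the 37 UMIs of H7 came from 1 cell, and without mixed cells the sign for skin against muscle turned (3.61, adjusted p = 0.702). *Gsn*, gelsolin, which severs actin filaments and is also secreted, was at 32081, 41436 and 25815 CPM in joint, 13431, 18244, 8489 and 23750.0 CPM in muscle and 10238, 2803, 2596 and 1921 CPM in skin (-2.94 ± 0.55, adjusted p = 0.00167, and -1.89 ± 0.52, adjusted p = 0.0252). *Cst3*, cystatin C, an inhibitor of cysteine proteases, differed by -3.28 ± 0.46 against joint and -1.66 ± 0.43 against muscle (adjusted p = 0.000291 and 0.0193). Every joint library exceeded every skin library for *Serpinf1*, *Sparcl1*, *Mgp* and *Gsn*, whereas muscle overlapped with skin for *Mgp* and *Gsn*. *Sparcl1* no longer passed for skin against joint (adjusted p = 0.05 without H7), *Sparcl1* for skin against muscle (adjusted p = 0.0568 without H7) and *Mgp* for skin against joint (adjusted p = 0.0538 without H4, 0.0772 without H6 and 0.06 without mixed cells). *Mgp* no longer passed for skin against muscle (adjusted p = 0.116 without H6, 0.533 without H7 and 0.054 with the mouse as a block), *Gsn* for skin against muscle (adjusted p = 0.144 without H4, 0.0641 without H6 and 0.167 without H7) and *Cst3* for skin against muscle (adjusted p = 0.0977 without H6 and 0.201 without H7).

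Of 10 matrix proteases and inhibitors tested out of 30 listed, 1 was higher and 4 lower in skin than in joint (*Timp2*, *Pcolce*, *Ctsb* and *Serpinf1*), 1 lower in muscle than in joint (*Serpine2*), and 2 higher and 2 lower in skin than in muscle. The shares of all genes tested were 7.11%, 12%, 1.96%, 8.09% and 7.6%, in the same order, so the 1 higher than in joint was near its share. *Timp2*, an inhibitor of matrix metalloproteases, differed by -1.56 ± 0.43 against joint (adjusted p = 0.0209) and -1.64 ± 0.45 against muscle (adjusted p = 0.0252). *Pcolce*, which enhances the trimming of procollagen, and *Ctsb*, a lysosomal cysteine protease, differed by -2.17 ± 0.62 and -1.17 ± 0.33 against joint (adjusted p = 0.023 and 0.0219). *Ecm1*, extracellular matrix protein 1, differed by -2.60 ± 0.44 for skin against joint (adjusted p = 0.00083). Of 11 complement genes at low counts 6 were lower in skin than in joint and 1, *Clu*, was lower in muscle. Of all genes of that fit 2.68% and 0.874% were lower. *Timp2* no longer passed for skin against joint (adjusted p = 0.0691 without H6, 0.12 without H7, 0.0516 without mixed cells and 0.0894 without non-blood mixed cells), *Timp2* for skin against muscle (adjusted p = 0.0771 without H6 and 0.163 without H7) and *Pcolce* for skin against joint (adjusted p = 0.101 without H4, 0.192 without H7, 0.0999 with the mouse as a block and 0.0693 without cartilage-list cells). *Ctsb* no longer passed for skin against joint (adjusted p = 0.125 without H4, 0.0743 without H6, 0.195 without H7, 0.0952 with the mouse as a block, 0.162 without mixed cells and 0.134 without non-blood mixed cells).

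Genes higher in skin included a protease, transcription factors and chemokines. *Mmp3*, stromelysin 1, which degrades several matrix proteins and activates other metalloproteases, was at 6624, 1896, 8653 and 8177 CPM in skin, 192, 1001 and 259.7 CPM in joint and 415, 779.7, 1382 and 247 CPM in muscle. Every skin library exceeded all others, by 3.67 ± 0.62 against joint (adjusted p = 0.00083) and 3.32 ± 0.62 against muscle (adjusted p = 0.00322). In H7, 82 of the 149 UMIs came from 1 cell. The thinned share of cells was 28.1% of skin fibroblasts, against 8.87% of other skin cells and 4.17% and 4.88% of joint and muscle fibroblasts.

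The window upstream of *Mmp3*, chr9:7445572-7445821 on the plus strand, is shown because it was the gene with the largest difference in favour of skin, among the genes called in the main test, and it holds a match to the AP-1 motif (position -46) and to the TATA motif (position -7), both in capitals.
Mmp3: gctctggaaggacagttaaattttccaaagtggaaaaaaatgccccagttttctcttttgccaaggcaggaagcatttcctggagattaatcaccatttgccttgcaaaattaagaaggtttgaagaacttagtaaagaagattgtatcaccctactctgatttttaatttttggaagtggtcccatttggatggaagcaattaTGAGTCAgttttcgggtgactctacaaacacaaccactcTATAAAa

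*Pxdc1*, which encodes a PX domain protein, was at 1104, 989, 1685 and 1701 CPM in skin, 385, 173 and 208 CPM in joint and 497, 156, 0 and 0 CPM in muscle (2.39 ± 0.56, adjusted p = 0.00694, and 2.69 ± 0.64, adjusted p = 0.0109). *Arid5b*, a DNA-binding regulator of transcription, was at 1907, 1484, 1639.6 and 2854 CPM in skin, 449, 207 and 467 CPM in joint and 580.4, 1092, 789.7 and 371 CPM in muscle (2.40 ± 0.38, adjusted p = 0.000691, and 1.54 ± 0.39, adjusted p = 0.0151). *Eif2s2*, a subunit of a translation initiation factor, differed by 2.09 ± 0.31 and 1.14 ± 0.30 (adjusted p = 0.000394 and 0.0189). Against joint alone, *Gm9892*, a predicted gene whose reads may be shared with a similar locus, differed by 2.58 ± 0.41 (adjusted p = 0.000691), and *Hnrnph1*, an RNA-binding protein of splicing, by 2.04 ± 0.47 (adjusted p = 0.00654). These 5 genes were picked among called genes without overlap between skin and joint, so their separation was set by that choice. *Pxdc1* no longer passed for skin against joint (adjusted p = 0.0666 without H7), *Pxdc1* for skin against muscle (adjusted p = 0.0641 without H6 and 0.106 without H7) and *Arid5b* for skin against muscle (adjusted p = 0.0763 without H3 and 0.181 without H7). *Eif2s2* no longer passed for skin against muscle (adjusted p = 0.0721 without H4 and 0.163 without H7) and *Hnrnph1* for skin against joint (adjusted p = 0.109 without H7).

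Against muscle alone, skin was higher in *Inhba*, a subunit of activins, *Cd44*, the hyaluronan receptor, and *Mef2a*, a transcription factor best known in muscle. *Inhba* was at 1004, 1072, 1731 and 1207 CPM in skin, 249, 0, 197 and 0 CPM in muscle and 192, 518 and 2597 CPM in joint (3.28 ± 0.97, adjusted p = 0.0353). *Cd44* was at 1004, 247, 1139 and 1152 CPM in skin and 166, 156, 0 and 0 CPM in muscle (3.17 ± 0.79, adjusted p = 0.0151). *Mef2a* was at 1907, 1072, 1002 and 1921 CPM in skin and 0, 156, 0 and 495 CPM in muscle (3.13 ± 0.67, adjusted p = 0.00605). The 3 were picked among called genes without overlap between skin and muscle, so their separation was set by that choice. Muscle had between 0 and 4 UMIs of each per library. The chemokines *Ccl2* and *Ccl7*, which recruit monocytes and are similar in sequence, were higher in skin than in muscle (2.25 ± 0.71 and 2.37 ± 0.74, adjusted p = 0.047 and 0.0469), and *Ccl2* also than in joint (2.14 ± 0.68, adjusted p = 0.0402). Of 13 immediate early genes tested, *Klf6* was higher in skin than in joint and muscle (1.73 ± 0.31 and 1.42 ± 0.31, adjusted p = 0.00132 and 0.00605), and *Fos* and *Egr1* were lower in skin than in joint (-1.56 ± 0.37 and -1.02 ± 0.31, adjusted p = 0.00705 and 0.0327), while 0 of 6 heat shock genes differed. The immediate early counts were near the shares of all genes tested. These were 7.11% higher and 12% lower in skin than in joint, and 8.09% higher in skin than in muscle. *Inhba* no longer passed for skin against muscle (adjusted p = 0.109 without H4, 0.114 without H6 and 0.0504 without H7), *Cd44* for skin against muscle (adjusted p = 0.163 without H7) and *Ccl2* for skin against joint (adjusted p = 0.108 without H4, 0.0691 without H6 and 0.0762 without H7). *Ccl2* no longer passed for skin against muscle (adjusted p = 0.114 without H4, 0.14 without H6, 0.0801 without H7 and 0.0817 without non-blood mixed cells), *Ccl7* for skin against muscle (adjusted p = 0.0793 without H4, 0.117 without H6, 0.132 without H7 and 0.0628 without non-blood mixed cells) and *Klf6* for skin against muscle (adjusted p = 0.106 without H7 and 0.179 without non-blood mixed cells). *Egr1* no longer passed for skin against joint (adjusted p = 0.126 without H3, 0.0799 without H4, 0.12 without H6, 0.0779 with the mouse as a block, 0.135 without mixed cells and 0.171 without non-blood mixed cells).

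Genes listed for dermal fibroblasts were called in both directions. Of 36 listed, 18 were tested at low counts, of which 1 was higher and 2 lower in skin than in joint, and 3 higher and 2 lower in skin than in muscle. The shares of all genes of that fit were 1.11%, 2.68%, 1.22% and 0.933%, in the same order. *Crabp1*, a retinoic acid-binding protein of dermal papilla and upper dermis, had 4, 1, 11 and 12 UMIs in skin, 0, 0 and 2 in joint and 0 in muscle (3.58 ± 0.95 against joint, adjusted p = 0.00796, and at least 4.67-fold over muscle, adjusted p = 0.0055). *Twist2*, a transcription factor of the dermis, had 4, 3, 5 and 9 UMIs in skin, 1, 2 and 0 in joint and 0 in muscle, and *Dkk2*, a Wnt antagonist, had 1, 5, 9 and 8 in skin, 0, 14 and 0 in joint and 0 in muscle. Both were called against muscle (adjusted p = 0.0222 and 0.0102) and not against joint (adjusted p = 0.0679 and 0.643). *Sfrp2*, a secreted Wnt modulator, was lower in skin than in muscle, with 0, 0, 3 and 0 UMIs in skin and 2, 1, 4 and 11 in muscle (-3.19 ± 0.87, adjusted p = 0.0165), 10 of 11 in 1 muscle cell of H7. The summed level of the list was 1596 to 2194 CPM in skin, 1678 to 2148 CPM in joint and 1377 to 3800 CPM in muscle. *Crabp1* no longer passed for skin against joint (adjusted p = 0.101 without H3 and 0.118 with the mouse as a block), *Crabp1* for skin against muscle (adjusted p = 0.0771 without H6 and 0.147 without H7) and *Twist2* for skin against muscle (adjusted p = 0.127 without H3, 0.0861 without H6, 0.231 without H7 and 0.0512 with the mouse as a block). *Dkk2* no longer passed for skin against muscle (adjusted p = 0.0585 without H4, 0.106 without H6 and 0.118 without H7) and *Sfrp2* for skin against muscle (adjusted p = 0.642 without H7).

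The genes *Slc26a7* and *a*, outside this list, were found in fibroblasts of skin alone at these depths. They entered the low-count fit through skin alone and were chosen after their values were seen. Their adjusted p are therefore partly set by the filter and the choice. *Slc26a7*, an anion exchanger, had 2, 16, 10 and 14 UMIs in skin and 0 in all joint and muscle libraries, at least 19.5-fold and 7.01-fold higher (adjusted p = 7.69e-07 and 9.41e-05). *a*, the agouti gene, whose secreted product from the dermal papilla switches hair pigment, had 1, 9, 22 and 13 UMIs in skin and 0 elsewhere, at least 20.9-fold and 7.51-fold higher (adjusted p = 7.29e-07 and 9.23e-05). Both had UMIs in all 4 skin mice, spread over cells with at most 6 UMIs each. Keratinocyte genes were called in skin fibroblasts too, 4 of 8 tested being higher than in joint and than in muscle (*Sfn*, *Krtdap*, *Lgals7* and *Epcam*). Of all genes of the low-count fit 1.11% and 1.22% were higher in skin, in the same order. The thinned share of skin fibroblasts with *Krtdap* was 9.38%, against 39.1% of other skin cells. The part of keratinocyte RNA in the genes higher in skin was not tested.

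Positional genes were sparse, and the organs differed in few of them. Of 68 limb and body position regulators listed, 66 were in the table and 52 had a UMI. They summed to 2704 CPM in joint, 2760 CPM in skin and 2473 CPM in muscle over all cells of each organ, ranging over libraries from 2291 to 3039, 2438 to 3118 and 1474 to 2984 CPM. Of 19 tested at low counts, 2 were higher and 1 lower in skin than in joint, 0 differed between muscle and joint, and 2 were higher in skin than in muscle. The shares of all genes of that fit were 1.11% higher and 2.68% lower in skin than in joint, and 1.22% higher in skin than in muscle.

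*Shox2*, a homeobox factor of proximal limb skeleton, had 2, 2, 11 and 9 UMIs in skin, 0 in joint and 1, 2, 0 and 0 in muscle. Skin was at least 11.1-fold higher than joint (adjusted p = 0.000653) and was not called against muscle (2.12, adjusted p = 0.307). *Tbx3*, a T-box repressor expressed at the margins of the limb bud, had 2, 1, 5 and 8 UMIs in skin, 0 in joint and 0, 0, 0 and 1 in muscle (at least 7.42-fold over joint, adjusted p = 0.00838). *Zfhx4*, a zinc finger homeobox factor, ran the other way, with 5, 7 and 4 UMIs in joint, 1, 1, 0 and 0 in muscle and 0 in skin (at least 3.83-fold over skin, adjusted p = 0.0214). *Twist1*, a transcription factor of mesenchyme, had 5, 3, 8 and 9 UMIs in skin, 5, 5 and 3 in joint and 0, 0, 0 and 1 in muscle, and was called for skin against muscle (3.58 ± 1.08, adjusted p = 0.0427). These calls rest on under 30 UMIs each. *Tbx3* no longer passed for skin against joint (adjusted p = 0.069 without H3 and 0.0941 with the mouse as a block), *Zfhx4* for skin against joint (adjusted p = 0.0553 without H3, 0.0861 without H4, 0.082 without H6, 0.123 without H7 and 0.204 with the mouse as a block) and *Twist1* for skin against muscle (adjusted p = 0.24 without H3, 0.0913 without H4, 0.22 without H6, 0.0983 without H7 and 0.0931 with the mouse as a block).

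Limb genes that mark fore- and hindlimb were near the limit of detection. *Pitx1*, which specifies the hindlimb, had 4, 2 and 0 UMIs in joint and 0 in the other organs, too few to test. *Tbx4*, of the hindlimb, had 1 UMI in all, in joint, and *Tbx5*, of the forelimb, had 1 in joint and 2 in skin. *Tbx15*, a factor of limb skeleton and dermis, had 4, 3 and 3 UMIs in joint, 0 in muscle and 0, 0, 0 and 1 in skin, and did not pass (-2.61, adjusted p = 0.279 for skin against joint). *Msx1*, a homeobox factor of limb mesenchyme, had 3, 5 and 7 UMIs in joint, 1, 0, 0 and 0 in muscle and 0, 0, 1 and 0 in skin, and *Meox2*, of limb muscle and mesenchyme, had 9, 3 and 2 in joint, 1, 0, 0 and 0 in muscle and 0, 1, 0 and 0 in skin. Every joint library had more UMIs of these 2 genes than any other library. The others held at most 1 UMI each and were mostly shallower. Neither gene was called, with adjusted p = 0.104 and 0.166 against skin and 0.387 and 0.453 against muscle. *Prrx1*, a general factor of limb mesenchyme, had 16, 18 and 10 UMIs in joint, 3, 4, 0 and 2 in muscle and 2, 7, 11 and 7 in skin and was not called.

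The *Hox* genes were few in all 3 organs. In joint and skin most of their UMIs lay on paralog groups at the distal end of the clusters, and in muscle 4 of 10 did. Paralog groups 9 to 13, which pattern the posterior body and limb, had 23 UMIs over 7 genes in joint, 14 over 7 genes in skin and 4 over 3 genes in muscle, or 138, 117 and 66.8 CPM. Groups 1 to 4 had 1, 0 and 4 UMIs, and groups 5 to 8 had 1, 3 and 2. By cluster, with the antisense *Hoxa11os* (4 UMIs in joint and 1 in muscle) counted in *HoxA* but not in the groups above, *HoxA* had 24 UMIs in joint, 10 in skin and 4 in muscle, and *HoxD* 5, 2 and 0, while *HoxB* had 0, 0 and 4 and *HoxC* 0, 5 and 3. *Hoxa10* had 2, 5 and 3 UMIs in joint, 0, 1, 0 and 0 in muscle and 0, 1, 1 and 0 in skin, and *Hoxa11*, which marks the middle segment of the limb, had 1, 3 and 2 in joint, 0 in muscle and 0, 1, 3 and 1 in skin. Neither passed in any comparison (adjusted p of 0.436 and 0.971 for skin against joint). With 4 to 12 UMIs per joint library and 0 to 3 per muscle library on groups 9 to 13, a difference between organs in the *Hox* code was not detectable at this depth.

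**Figure D5:**
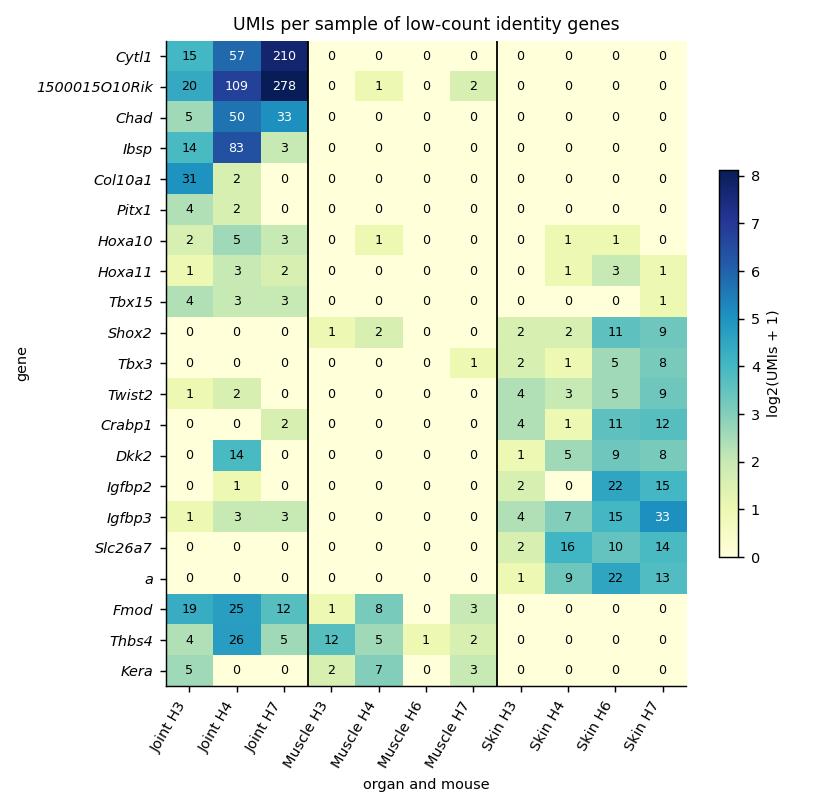
UMIs of low-count identity and position genes in the fibroblasts of each mouse (columns, by organ), with the number printed in each cell. *Cytl1* and *Chad* have UMIs in the 3 joint libraries and 0 in the 8 others, *Slc26a7* and *a* have UMIs in the 4 skin libraries and 0 in the 7 others, and *Hoxa10* has at most 5 in any library.

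Genes of granulocytes and red blood cells were lower in skin. *S100a8*, a subunit of granulocyte calprotectin, had 162, 65 and 152 UMIs in joint, 23, 124, 84 and 112 in muscle and 1 in skin (adjusted p = 0.000228 against joint and 8.72e-05 against muscle). Its partner *S100a9* had 73, 13 and 47 UMIs in joint, 7, 51, 32 and 54 in muscle and 0 in skin, at least 31.9-fold and 95.9-fold higher than in skin (adjusted p = 0.00489 and 0.00181). *Camp*, cathelicidin, and *Lyz2*, lysozyme of myeloid cells, followed (-5.69 ± 1.14 and -3.20 ± 0.70 for skin against muscle, adjusted p = 0.00466 and 0.00605). Thinned shares with an *S100a8* UMI were 54.7% of joint and 67.1% of muscle fibroblasts, against 59.9% and 87.4% of the other cells of those organs. Whether this RNA came from other cells was not tested. *Hbb-bs*, a beta globin gene, was found in 99.5% of joint and 91.5% of muscle fibroblasts against 95.3% and 81.4% of other cells. Leaving all haemoglobin and granulocyte genes out of the fit gave 69 calls for skin against joint, 10 for muscle against joint and 51 for skin against muscle. *Camp* no longer passed for skin against muscle (adjusted p = 0.0504 without H7) and *Lyz2* for skin against muscle (adjusted p = 0.0585 without H4 and 0.0619 without H7).

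The fibroblasts of CIA mice (5 skin, 3 joint and 4 muscle libraries with at least 10 cells) gave the same organ comparison in other animals, which were diseased. In them 102 genes (8.14%) were called for skin against joint, 46 (3.67%) for muscle against joint and 118 (9.42%) for skin against muscle, of 1253 tested. Of the 78 genes called for skin against joint in healthy mice, 75 were tested, 70 had the same sign and 30 were called. For muscle against joint 5 of 8 were tested, all with the same sign and 2 called, and for skin against muscle 63 of 64 were tested, 60 with the same sign and 37 called. In 0 cases was a gene called with the opposite sign.

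*Prg4* had log2 fold changes of -2.91 (adjusted p = 0.0443) for skin and -4.59 (adjusted p = 0.0139) for muscle against joint in CIA mice. *Ogn* was at -2.29 (adjusted p = 0.016) and -4.18 (adjusted p = 0.000188) for skin against joint and muscle, and *Igfbp6* at -2.88 (adjusted p = 0.00735) and -3.24 (adjusted p = 0.00262), in the same order. *Slc26a7* and *a* had 34 and 28 UMIs in skin of CIA mice and 0 in joint and muscle. Some genes of the healthy comparison were not called. *Mmp3* was at 0.21 (adjusted p = 0.887) for skin against joint, with 1879 UMIs in joint and 1312 in skin, and *Serpine2* at -0.54 (adjusted p = 0.736) for muscle against joint. *Thbs4* and *Dkk2* had the opposite sign for skin against muscle, at 0.97 (adjusted p = 0.67) and -0.14 (adjusted p = 0.961). *Shox2* and *Tbx3* were at 1.27 (adjusted p = 0.383) and 1.91 (adjusted p = 0.226) for skin against joint, *Shox2* having 16 UMIs in skin, 17 in joint and 19 in muscle. *Cytl1* had 0 UMIs in joint and 8 in muscle of CIA mice. Whether the organ differences themselves differ between healthy and CIA mice was not tested.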

How the data were processed

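Single-cell RNA was measured by Seq-Well in skin, joint and muscle of healthy mice and of mice with CIA. The authors aligned reads with STAR through the Drop-seq pipeline and deposited raw UMI counts per gene and cell, a table of 34586 genes and 13240 cells, with annotation labels for 12096 cells. The deposited annotation, used as given, supplied cell type, organ and disease. The study's methods name the mouse build GRCm38, whereas the submitters' processing notes list GRCh38 and mm9, so no coordinate was taken from the counts. No doublet caller was run. The study removed cells above an upper limit of transcripts, and the healthy fibroblasts held 425 to 5544 UMIs. Every column of per-sample values was used (0 left out).

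UMI counts were summed per organ and mouse in 11 samples (at least 10 cells each) and tested with edgeR 4.0.16 (R 4.3.3): filterByExpr, TMM factors, glmQLFit with organ as the only term, glmQLFTest per pair of organs, and Benjamini-Hochberg adjustment over all genes tested, with a threshold of 0.05. CPM of single genes are TMM-scaled and set against a smaller total than the full library, so they run higher. Summed lists and the floors in CPM use plain library size. DESeq2 1.42.0 was an alternative. Labels tie samples of 1 number to 1 mouse, so samples are paired by animal. The main model has no mouse term, and deviations from the organ means correlated at 0.138 to 0.215 in 3 same-mouse pairs of joint and muscle (-0.213 to 0.0642 in 9 pairs of different mice), at -0.193 to 0.0794 in 3 of joint and skin (-0.111 to 0.194 in 9), and at -0.115 to -0.0495 in 4 of muscle and skin (-0.125 to 0.267 in 12). Floors of 3 UMIs and shares of cells cover counting error only. The scripts were tested on simulated data.

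The members, gene lists and tests were chosen with earlier results of these data known. Named genes were, per comparison and direction, the up to 6 with the largest fold among called genes without overlap between organs (immunoglobulin, T cell receptor, haemoglobin and mitochondrial genes aside), every called member of an identity, position or matrix list, and the defining members of the position and tissue lists. Outside this rule, *Ccdc80*, *Ccl2*, *Ccl7*, *Cst3*, *Egr1*, *Fos*, *Gsn*, *Igfbp7*, *Klf6*, *Mgp*, *Hbb-bs*, *1500015O10Rik*, *Slc26a7*, *a* and the low-count members were chosen after their values were seen. Promoter sequences came from RefSeq (GRCm38.p6), where 11 of 16 genes looked up had an entry.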

Additional observations from a re-analysis of the deposited data

Results flagged for a closer look

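In groups of 4 mice, the highest or lowest library was compared with the others by its gap to the nearest library divided by the range of the group, against Dixon's 95% critical value. In 64 groups of named genes, and in the sample measures and summed lists, 13 groups passed. Chance alone passes about 1 in 20 groups. The 13 include sample measures and a summed list, so they cannot be set against the 64 gene groups alone. In skin, *Prg4* passed (0.982) with 2509 CPM in H3 and a lowest value of 0, the UMIs of H3 lying in 1 cell. *Gsn* passed (0.894), H3 being highest at 10238 CPM and the lowest at 1921 CPM. *Serpine2* passed (0.860) with H6 highest at 4236 CPM and a lowest value of 1706 CPM. *Apod* passed (0.852) with H4 highest at 824 CPM and a lowest value of 501 CPM. *Cd44* passed (0.836) with H4 lowest at 247 CPM and a highest value of 1152 CPM. The number of skin fibroblasts also passed (0.882), with 44 cells in H6 and a lowest number of 27. The share of fibroblasts among annotated skin cells passed (0.854) with H4 highest at 43.3% and a lowest share of 30.8%.

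In muscle, *Clec3b* passed (0.945) with H4 highest at 2339 CPM and a lowest value of 1326 CPM. *Apod* passed (0.934) with H6 highest at 2764 CPM and a lowest value of 468 CPM. *S100a4* passed (0.906) with H3 highest at 1409 CPM and a lowest value of 197 CPM. *Mgp* passed (0.887) with H7 highest at 4577 CPM and a lowest value of 82.9 CPM. *Ccl7* passed (0.830) with H3 highest at 1161 CPM and a lowest value of 0. The summed lipid and retinoid handling list passed (0.858) with H3 lowest at 2030 CPM and a highest value of 3903 CPM.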

How the results depend on the processing

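Counts of called genes are given against 78 for skin and joint, 8 for muscle and joint, 64 for skin and muscle and 80 over the 3 organs. Without a filter on low counts they were 130, 38, within 1.5 times of 64, and 191. With genes of at least 10 UMIs they were 195, 51, 111 and 248. Every cell thinned to 400 UMIs gave 30, 30 and 41 for skin and joint, skin and muscle, and the 3 organs. The fibroblasts of CIA mice gave 46, 118 and 164 for muscle and joint, skin and muscle, and the 3 organs. For muscle and joint, plain library size gave 3, at least 20 cells per sample gave 2, H4, H6 and H7 alone gave 19, leaving out cells with cartilage UMIs gave 4, and leaving out cells with markers of other cell types gave 0, also with blood markers ignored. For skin and muscle, at least 20 cells gave 32, and leaving out cells with markers of other cell types gave 12. Leaving out 1 mouse gave 47 to 85 for skin and joint, 0 to 19 for muscle and joint, 19 to 66 for skin and muscle, and 56 to 98 over the 3 organs. The replicate block (the mouse as a term) gave 5 for muscle and joint and moved no other count by over 1.5 times. Under the block, 73 of 82 calls of named genes held and 9 were lost. Of the 82, 20 kept direction and side of the threshold in every setting run, and 10 of 86 calls of the low-count fit did. Plain library size moved the median of all genes from -0.01 to 0.09 (skin against joint) and from 0.01 to 0.15 (muscle against joint). Signs turned for *Apod* (skin against joint 1.56, adjusted p = 0.0747), *Thbs4* (skin against muscle 0.97, adjusted p = 0.67) and *Dkk2* (skin against muscle -0.14, adjusted p = 0.961) in CIA mice, and for *Mgp* (skin against muscle 3.61, adjusted p = 0.702, edgeR) without cells with other markers. The causes were not tested. Depth limits muscle most, where 3 UMIs over the organ are 50.1 CPM of the full library, a scale on which CPM of single genes are not given.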
